A study of Mus musculus with 39 samples.

Results

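The comparison described here set 4 tumours of mice that did not respond to tretinoin combined with immune checkpoint therapy (ICT) against 10 tumours of mice given PBS, 14 of the 39 tumours sequenced. The tumours were AB1-HA, a murine mesothelioma line that carries the influenza haemagglutinin gene, grown subcutaneously in BALB/c mice aged 8 to 10 weeks. Members were taken from the labels alone: treatment tretinoin+ICT with the response non-responder (tumours 21, 23, 25 and 44), and treatment PBS (tumours 11 to 15 and 51 to 55). Non-responders received tretinoin at 5 mg/kg daily for 5 days from day 4, as the labels give it, and anti-CTLA-4 plus anti-PD-L1, 100 µg of each, from day 7, while PBS mice received neither agent. Descriptions of the experiment differ on the number of tretinoin doses. Each mouse of the combination group carried a tumour on either flank. One was resected on day 9 for RNA, and the other was left in place to define the outcome, so the RNA comes from a tumour whose own fate was not followed. The question asked was which transcripts the combination had changed by day 9 in mice whose other tumour later grew out. Every result is a normalised read count from bulk tumour RNA, in which fewer cells of a type and less RNA per cell cannot be told apart.

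Tretinoin is all-trans retinoic acid, a ligand of nuclear retinoic acid receptors. The bound receptors switch on genes that include the retinoid-degrading enzymes themselves, so those enzymes are widely used as a readout of retinoid exposure. Checkpoint antibodies release T cells from inhibition, and interferon gamma from activated lymphocytes induces IRF1, guanylate-binding proteins, antigen presentation genes, CXCR3 ligands and PD-L1 in the cells around them.

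Non-responder libraries held 17536099 to 19370154 counts and PBS libraries 16155683 to 23114796. A gene was called when its adjusted p-value in edgeR's quasi-likelihood test was below 0.05 and its fold change was at least 2-fold, that is 1 on the log2 scale. Among the PBS tumours, tumour 14 stood apart with high interferon and leukocyte transcripts and set the upper end of the PBS range for many of the genes below. Among the non-responders, tumour 25 was high in immediate early genes, and tumour 23 was high in skeletal muscle genes (summed count 83400, against 8410 to 43810 in PBS tumours). Of the mesothelial markers, Upk3b was at most 1.10 normalised counts in every tumour of the comparison and Muc16 was at 0, whereas Cav1 (13835 to 24432) and Pdpn (1058 to 1535) were abundant. The first digit of a tumour's number, its name series, is nested within treatment: PBS tumours are series 1 and 5, and non-responders are 3 tumours of series 2 and 1 of series 4. Series and treatment therefore cannot be told apart.

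Of 14783 genes tested, 391 were called higher in the non-responder tumours than in PBS tumours (2.64%) and 41 were called lower (0.277%). Of those called higher, 337 differed by 1 to 2 on the log2 scale, 47 by 2 to 3, and 7 by at least 3, and 297 were protein coding. In 192 of the 391 genes every non-responder tumour lay above every PBS tumour, and in 8 of the 41 every non-responder lay below. The same held for 4.5% and 2.59% of all genes tested. Without the fold change minimum, 1922 genes were higher (13%) and 1252 lower (8.47%) at the same adjusted p-value. Non-responder tumour 23 decided many calls: without it 268 genes were called higher. Against the PBS tumours of series 1 alone, which include tumour 14, 181 genes were called higher and 13 lower, and against those of series 5 alone 384 and 61. When any one of the 14 tumours was left out, 225 of the 432 called genes were still called in each of the 14 fits.

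**Figure D1:**
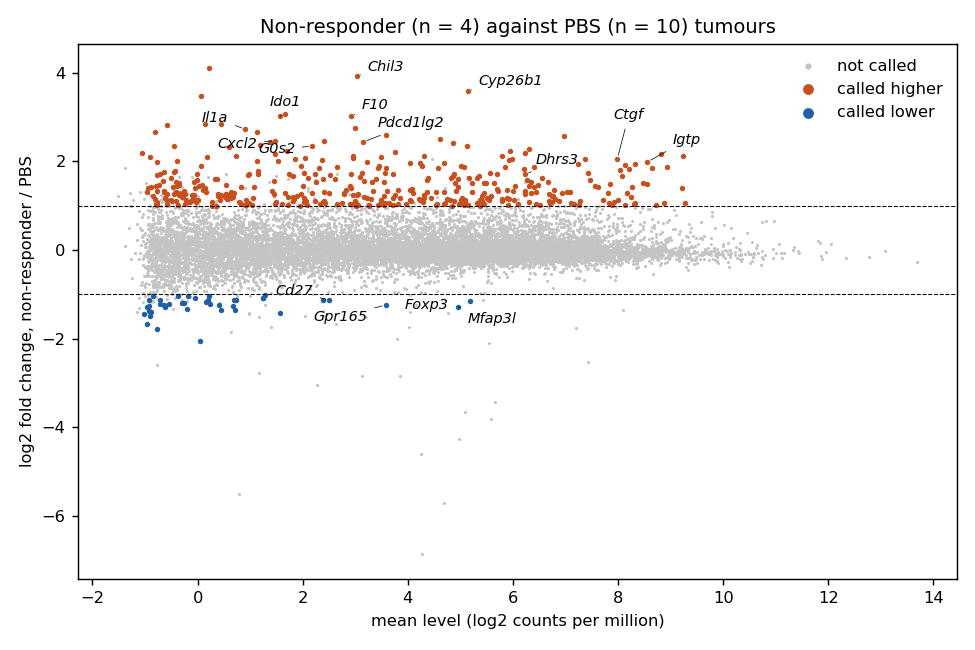
Log2 fold change of non-responder (n = 4) over PBS (n = 10) tumours for the 14783 genes tested, against mean level in log2 CPM; dashed lines mark a 2-fold change. The 391 genes called higher (orange) outnumber the 41 called lower (blue), and the grey points far below the lower line are genes with standard errors too wide for a call.

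Retinoid-induced genes were raised in the non-responder tumours. Cyp26b1, which oxidises and inactivates retinoic acid, had 970, 2077, 2129 and 2218 normalised counts in tumours 21, 23, 25 and 44, against 101 to 213 (median 153) in PBS tumours. All 4 non-responders lay above all 10 PBS tumours, with a log2 fold change of 3.60 (SE 0.20, adjusted p = 2.99e-07 by edgeR). The gene lies on chromosome 6 from 84571414 to 84593908, on the minus strand of GRCm38. Dhrs3 (chromosome 4, 144892827 to 144928209 in the same annotation) reduces retinaldehyde back to retinol.

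Dhrs3 had 2040, 2544, 2842 and 3357 normalised counts in the same order, against 679 to 950 (median 823) in PBS tumours. Its log2 fold change was 1.71 (SE 0.10, adjusted p = 1.85e-07 by edgeR), and the groups did not overlap. Tgm2, a retinoid-induced transglutaminase, was at 8833 to 12957 against 2026 to 4479 (log2 fold change 1.92). Nrip1, a nuclear receptor corepressor that retinoic acid induces, was at 1454 to 2256 against 721 to 1046 (1.12). In each of the 4 genes the lowest non-responder exceeded the highest PBS tumour, and each call was kept when any one tumour was left out. Tumour 21 had the lowest level in all 4 genes.

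These genes were a small part of the retinoid machinery. Of 14 genes tested for retinoid metabolism and binding, 2 were called higher (Cyp26b1 and Dhrs3) and none lower, with a median log2 fold change of 0.26 against -0.01 over all genes. Of 14 receptors and direct targets, 3 were called higher (Tgm2, Nrip1 and Rxrg) and none lower, with a median of 0.23. Rxrg, a retinoid X receptor, was low (3.18 to 43.4 against 0.84 to 11), and its call was lost without tumour 21 or tumour 23. The binding protein gene Crabp2 differed by 0.26 (adjusted p = 0.041 by edgeR) and the retinol transporter gene Stra6 by 0.11 (adjusted p = 0.75). Cyp26a1 and Rarb, commonly measured retinoid targets, were not analysed here.

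Tumours given a single treatment place these values. With ICT alone Cyp26b1 was at 118 to 603 normalised counts, and the non-responders exceeded it by 2.52 on the log2 scale (SE 0.33, adjusted p = 0.0062 by edgeR). With tretinoin alone it was at 4402 to 6986, above every non-responder (difference -1.60, SE 0.20, adjusted p = 0.0022). Dhrs3 followed the same order, at 790 to 1368 with ICT and 4679 to 5928 with tretinoin. Non-responders differed from these by 1.31 (adjusted p = 5.66e-04) and -0.96 (adjusted p = 0.0013). Nrip1 differed by 1.18 from ICT alone and by -0.53 from tretinoin alone (adjusted p = 0.036). For Tgm2 the difference from tretinoin alone was -0.06 (SE 0.27, adjusted p = 0.94), and that from ICT alone, 1.07, did not pass the test (adjusted p = 0.089).

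Against ICT alone, 12 of 14629 genes were called higher in non-responders (0.0820%) and 0 lower. At an unadjusted p below 0.05 the counts were 526 and 325, together 5.82% of the genes tested, and DESeq2 called 22 and 4. The 12 genes, named after their values were seen, included Cyp26b1, Dhrs3 and Nrip1 along with Inmt, Wnt9a, Hic1, Fcna, Zfp791, G0s2 and 3 gene models without an assigned function. Inmt, an indolethylamine N-methyltransferase, was at 50.1, 83.8, 38.1 and 19.1 normalised counts against 3.52 to 17.2 with ICT alone, a difference of 2.62 (SE 0.37, adjusted p = 0.0062 by edgeR). G0s2, an inhibitor of the lipase that starts the breakdown of stored triglyceride, was at 147 to 216 in non-responders. It was at 20 to 64 with PBS, 28.2 to 77.8 with ICT alone and 40.4 to 132 with tretinoin alone. Every non-responder exceeded every tumour of those 3 groups, with differences of 2.34, 1.81 and 1.09, each past the threshold (adjusted p = 3.10e-06, 0.0025 and 0.047 by edgeR). These rises were not particular to non-responders. In tumours of mice that responded to the same treatment G0s2 was at 164 to 423 and Inmt at 24 to 117.

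Against tretinoin alone, 22 of 14864 genes were called higher in non-responders (0.148%) and 15 lower (0.101%). These counts rested on few tumours: without tretinoin tumour 33 they were 64 and 35, and without non-responder tumours 25 and 23 in turn they were 8 and 6, and 11 and 7. The genes lower than with tretinoin alone, also named after their values were seen, included 3 of the retinoid list, Cyp26b1, Stra6 and Lrat. Lrat, which esterifies retinol for storage, was at 3.06 to 13.4 against 12.7 to 63.5 (difference -2.44, SE 0.45, adjusted p = 0.021 by edgeR), and was not tested against PBS because its counts were too low. Larger differences below tretinoin alone than that of Cyp26b1 were also found for Inmt (-2.22) and the RNA helicase gene Ddx25 (-2.83). Genes higher than with tretinoin alone included 4 of 9 neutrophil markers (Trem1, Cxcr2, Il1r2 and S100a9), Cxcl2, Slfn4, Per1, Dusp1 and Tsc22d3. The retinoid plot sets the 39 tumours side by side.

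**Figure D2:**
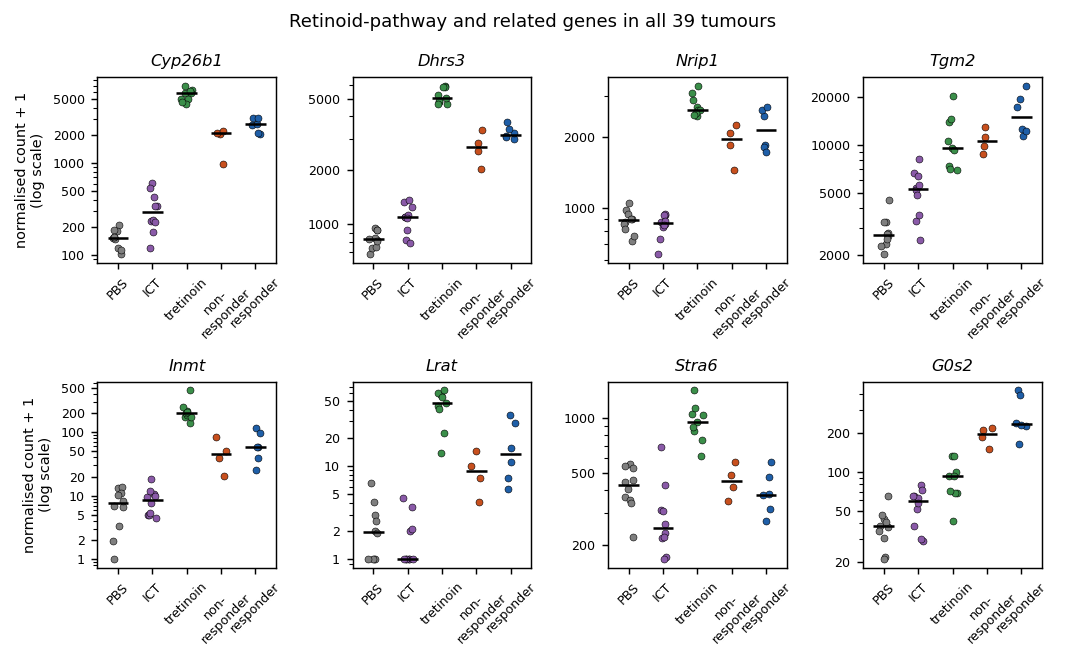
Normalised counts + 1 (log scale) of 8 genes in PBS (n = 10), ICT (n = 10), tretinoin (n = 9), non-responder (n = 4) and responder (n = 6) tumours; points are tumours and bars are medians. Non-responder values of Cyp26b1, Dhrs3 and Nrip1 sit above all PBS and ICT tumours and below all tretinoin tumours, whereas G0s2 is higher in the non-responders than in every tumour of the PBS, ICT and tretinoin groups.

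Among interferon-inducible genes, the GTPases were raised in every case tested. The interferon-inducible GTPases, which attack the vacuoles of intracellular pathogens, comprise the guanylate-binding proteins (Gbp) and the immunity-related GTPases (Irgm1, Irgm2, Igtp, Tgtp1 and Tgtp2). All 16 tested were called higher, with a median log2 fold change of 1.95 and a range of 1.28 (Gbp9) to 2.34 (Gbp11), and all 16 were called in each fit that left out one tumour. Igtp had 13003, 20754, 14408 and 10430 normalised counts in tumours 21, 23, 25 and 44, against 1455 to 8874 (median 2949) in PBS tumours (1.99, SE 0.36, adjusted p = 0.0023 by edgeR). In the 5 immunity-related GTPases all 4 non-responders exceeded every PBS tumour. In the 11 Gbp genes tumour 44 lay within the PBS range, and PBS tumour 14 had the highest summed count of the family among PBS tumours. Tgtp1 and Tgtp2 are near-identical, as are several Gbp genes, so reads could be split between copies and single members are uncertain.

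The start sites of these genes are shown because all members moved together. RefSeq promoters (GRCm38.p6, 250 bases before to 50 after the start site) matched 10 of the 16 genes, and all 10 held the letters GAAA, any 2 bases and again GAAA, the core of an interferon-stimulated response element, on one strand or the other. It was present in 3.44% of all 32851 promoters. Among genes with a promoter it was in 31 of 271 called higher (11.4%), against 4.03% of those tested. Those 31 include the same 10 GTPases, so the share is not a separate observation. TTCNNNGAA, the core of a gamma-activated site, was in 6 of the 10 genes and in 8.30% of all promoters. In 4 of the immunity-related GTPases the motifs stood 2 bases apart in the same order. This joint pattern was found in 5 of the 32851 promoters (0.0152%), those of Igtp, Irgm2, Tgtp1, Tgtp2 and the gene model Gm12185, and all 5 genes were called higher. These genes are related copies of one family and are not independent. Each stretch of 30 bases is written 5′ to 3′ on the strand that spells the motif, with the matching letters in capitals:
Igtp, chr11:58199506-58199535, plus strand: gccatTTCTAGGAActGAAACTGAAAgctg
Irgm2, chr11:58214897-58214926, plus strand: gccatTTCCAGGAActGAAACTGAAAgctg
Tgtp1, chr11:48992310-48992339, minus strand: gccatTTCCAGGAAtcGAAACTGAAAccta
Tgtp2, chr11:49064269-49064298, minus strand: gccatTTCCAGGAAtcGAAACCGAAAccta
Gbp2, chr3:142620594-142620623, minus strand: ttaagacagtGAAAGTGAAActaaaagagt
Gbp7, chr3:142530273-142530302, minus strand: atggagaactGAAACTGAAActgcacacac

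The Gbp2 and Gbp7 stretches hold only the first motif. Neither motif, nor a direct repeat of the retinoic acid response element with a spacing of 2 or 5 bases, was spelled in the RefSeq promoter of Cyp26b1. A match of letters is a description of sequence and not of binding.

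Transcription factors and antigen presentation genes of the interferon response followed. Irf1 had 12240, 15580, 12708 and 9675 normalised counts against 2610 to 8660 (median 3959), with no overlap and a log2 fold change of 1.5 (SE 0.24, adjusted p = 0.0011 by edgeR). Of 18 factors and regulators on this list, 5 were called higher, among them Irf5 (1.29), Irf8 (1.36) and Socs3 (1.07).

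All 17 MHC class I and immunoproteasome genes tested were higher at the adjusted p threshold, with a median of 0.73, and 5 reached the fold change minimum, including the peptide transporter gene Tap1 (1.19) and Psmb9 (1.21). Of 8 MHC class II genes, 6 were called higher (median 1.10), led by the peptide-loading genes H2-DMa (1.46), H2-DMb1 (1.34) and H2-DMb2 (1.34). These class II calls leaned on tumour 23, without which 2 of 8 were called. H2 genes are a multigene family in which reads can be shared. By contrast, 1 of 21 antiviral type I interferon genes was called, Zbp1 (1.44), although 16 passed the adjusted p threshold (median 0.60).

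CXCR3 ligands, which draw activated T cells, were raised. Cxcl9 had 9098, 17965, 11080 and 5827 normalised counts against 926 to 9247 (median 2502), a log2 fold change of 1.83 (SE 0.47, adjusted p = 0.016 by edgeR). Tumours 21 and 44 lay within the PBS range, and the call was lost without tumour 23. Cxcl10 (1.53) and Cxcl11 (1.97) were called in every fit that left out a tumour. Of 13 genes on the chemokine list 6 were called, the others being Ccl2 (1.31), Ccl3 (1.08) and Ccl7 (1.01), whose call was lost in 8 of 14 fits that left out a tumour, while Cxcr3 itself differed by -0.13 (adjusted p = 0.70). Without tumour 23 the count was 3.

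Ligands of inhibitory receptors rose as well. Cd274, which encodes PD-L1, the target of one antibody given, had 2675, 4761, 3239 and 2022 normalised counts against 341 to 2245 (1.88, SE 0.37, adjusted p = 0.0037 by edgeR). Pdcd1lg2, encoding the second PD-1 ligand, PD-L2, was at 335, 352, 412 and 432 against 25.4 to 207 (median 67.9). It did not overlap the PBS tumours and had a log2 fold change of 2.44 (SE 0.41, adjusted p = 0.0014). Of 15 checkpoint ligands and receptors 3 were called higher, the other being Cd86 (1.04), and none lower (median 0.24). The Cd86 call was lost in 3 of 14 fits, those without PBS tumours 12 and 13 and non-responder tumour 23.

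**Figure D3:**
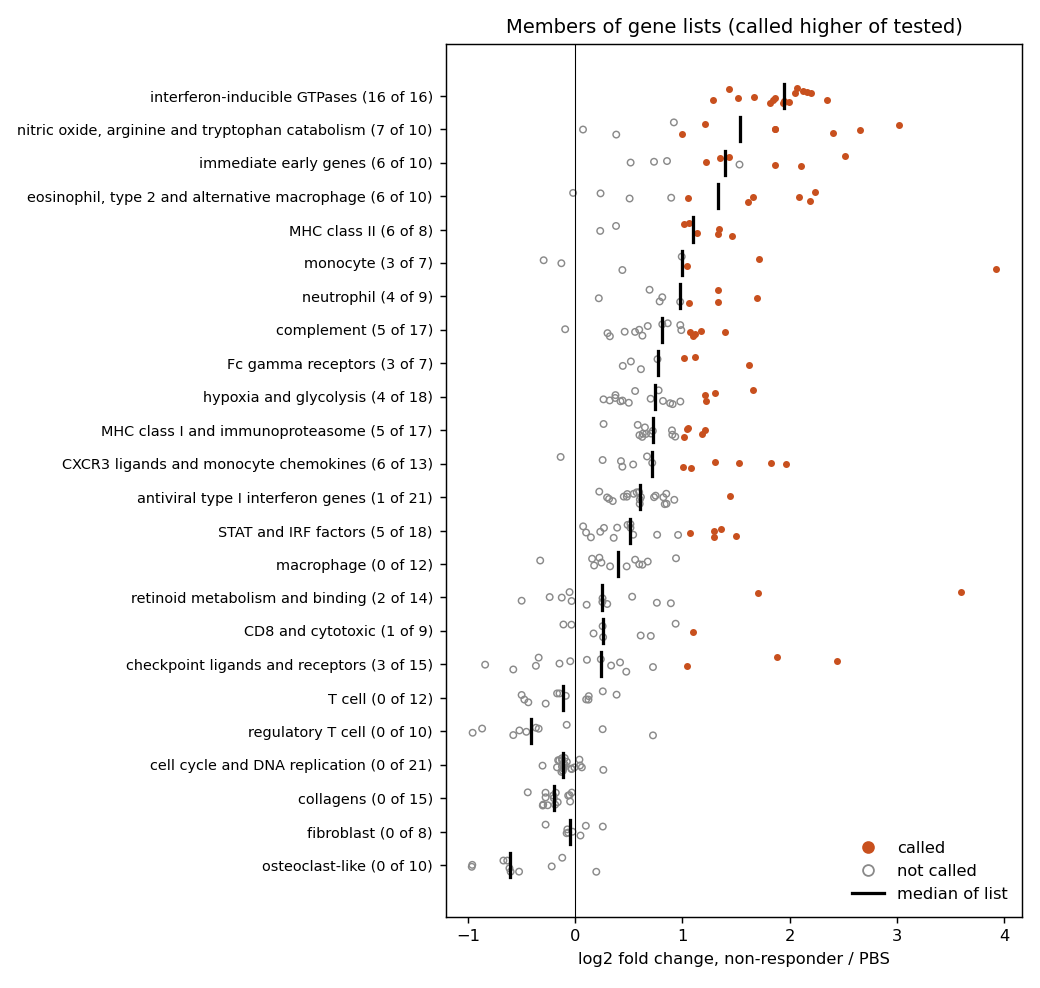
Log2 fold change of non-responder over PBS tumours for each tested member of 24 gene lists; filled points were called, bars mark list medians, and brackets give members called higher of members tested. The interferon-inducible GTPases sit to the right of 1 in every case, while the list medians of T cell, cell cycle, collagen and fibroblast genes lie between -0.20 and -0.04.

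Enzymes that consume tryptophan and arginine, a classic means of restraining T cells, were raised, and the tryptophan enzymes Ido1 and Ido2 were among the 12 largest rises by the naming rule. Ido1, which opens tryptophan catabolism, had 107, 189, 168 and 98.5 normalised counts against 3.99 to 68.1 (median 12), a log2 fold change of 3.02 (SE 0.48, adjusted p = 7.87e-04 by edgeR). Its neighbour Ido2 was at 71.5 to 141 against 1.0 to 42.8 (2.65). Both were separated from all PBS tumours. Nos2, the inducible nitric oxide synthase gene, was at 331, 782, 408 and 259 against 88.7 to 317 (1.86, adjusted p = 0.0023), with tumour 44 below PBS tumour 14. Of 10 genes of this list 7 were called higher and none lower (median 1.54). Arg1 was not analysed here.

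The genes of coagulation factors VII and X rose together. F10 had 279, 303, 355 and 515 normalised counts against 7.97 to 119 (median 41.2), a log2 fold change of 3.02 (SE 0.39, adjusted p = 1.76e-04 by edgeR). F7, which lies beside F10 on chromosome 8, was at 53.1, 59.6, 74.1 and 249 against 7.97 to 36.4 (2.44). Neither overlapped the PBS tumours. They were the 2 members called of 12 on the coagulation list, whose median was 0.17. In the complement list 5 of 17 were called (median 0.81), including the C5a receptor gene C5ar1 (1137 to 1326 against 473 to 710, 1.12, adjusted p = 1.59e-06), and without tumour 23 the count was 2.

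Genes of glycolysis and the hypoxia response moved uniformly but mostly by less than 2-fold. All 18 tested were higher at the adjusted p threshold, against 13% of all genes, with a median of 0.74, and 4 were called. Hk2, the inducible hexokinase, had 2332, 3189, 2710 and 2655 normalised counts against 800 to 1419 (1.30, SE 0.12, adjusted p = 6.44e-06 by edgeR). The glucose transporter gene Slc2a1 (1.22) and the vasodilator peptide gene Adm (1.21) also showed no overlap with PBS tumours. Ldha, the lactate dehydrogenase gene, differed by 0.32 (SE 0.05, adjusted p = 3.34e-04) and stayed under the fold minimum.

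Of 17 inflammatory cytokine and prostaglandin synthesis genes tested, 4 were called higher and none lower (median 0.515). At the adjusted p threshold 8 were higher, against 13% of all genes. Cxcl2, a neutrophil chemoattractant, had 87.8, 148, 172 and 65.1 normalised counts against 6.98 to 34.1 (2.47, SE 0.29, adjusted p = 3.93e-05 by edgeR). Il1a (70.8 to 109 against 6.36 to 32.1, 2.73) and Csf2, encoding GM-CSF (15.3 to 36.3 against 2.53 to 14.6, 2.34), were also clear of the PBS range. In contrast Tnf (0.34, SE 0.26, adjusted p = 0.37), Il6 (0.38, SE 0.21, adjusted p = 0.21) and Ptgs2, encoding cyclooxygenase 2 (-0.07, SE 0.22, adjusted p = 0.86), did not pass the test, and their values overlapped those of PBS tumours.

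Myeloid markers were raised unevenly. Of 9 neutrophil markers tested 4 were called higher (median 0.98), among them Trem1 (149 to 241 against 32.8 to 113, 1.70) and Cxcr2 (298 to 459 against 79.7 to 253, 1.33), and the summed count was 2723 to 4216 against 1320 to 2878. S100a8 differed by 0.81 and S100a9 by 1.07. Of 7 monocyte markers 3 were called. Chil3, a chitinase-like protein of monocytes and alternatively activated macrophages, had the largest rise by the naming rule, 3.93 (SE 0.59, adjusted p = 6.96e-04 by edgeR), but its 4 values were 134, 185, 165 and 1272, so the size rests on tumour 44, without which it was 2.49. PBS tumours held 6.28 to 53.6.

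None of 12 macrophage markers was called (median 0.40). At the adjusted p threshold 5 were higher and 1 lower, against 13% and 8.47% of all genes. The 5 included the efferocytosis receptor gene Mertk (0.94), which was lower in tumour 21 (340) than in the other 3 (645 to 684). All 7 Fc gamma receptor genes were higher at that threshold (median 0.77) and 3 were called, Fcgr4 (1.62), Fcgr1 (1.12) and Fcgr3 (1.01). The call for Fcgr3 was lost in 8 of 14 fits that left out a tumour.

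Type 2 and dendritic cell genes included several without overlap. Ccl24, an eosinophil chemoattractant, had 100, 109, 119 and 196 normalised counts against 9.97 to 63.2 (2.24, SE 0.35, adjusted p = 5.61e-04 by edgeR). Il13 was low but separated, at 12.1 to 22 against 0 to 8.18 (2.19), and the lectin gene Mgl2 was at 982 to 2460 against 274 to 597 (1.66). Of 10 members of this list 6 were called (median 1.33), and 3 without tumour 44, which was the highest of the 4 for Ccl24, Il13 and Mgl2. Among 13 dendritic cell genes 4 were called (median 0.09). Batf3, a factor needed for cross-presenting dendritic cells, was at 84.8 to 140 against 15.5 to 44.8 (2.02), and Ccl17, a ligand of CCR4, at 154 to 368 against 20.9 to 65.9 (2.46). Both were clear of every PBS tumour.

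**Figure D4:**
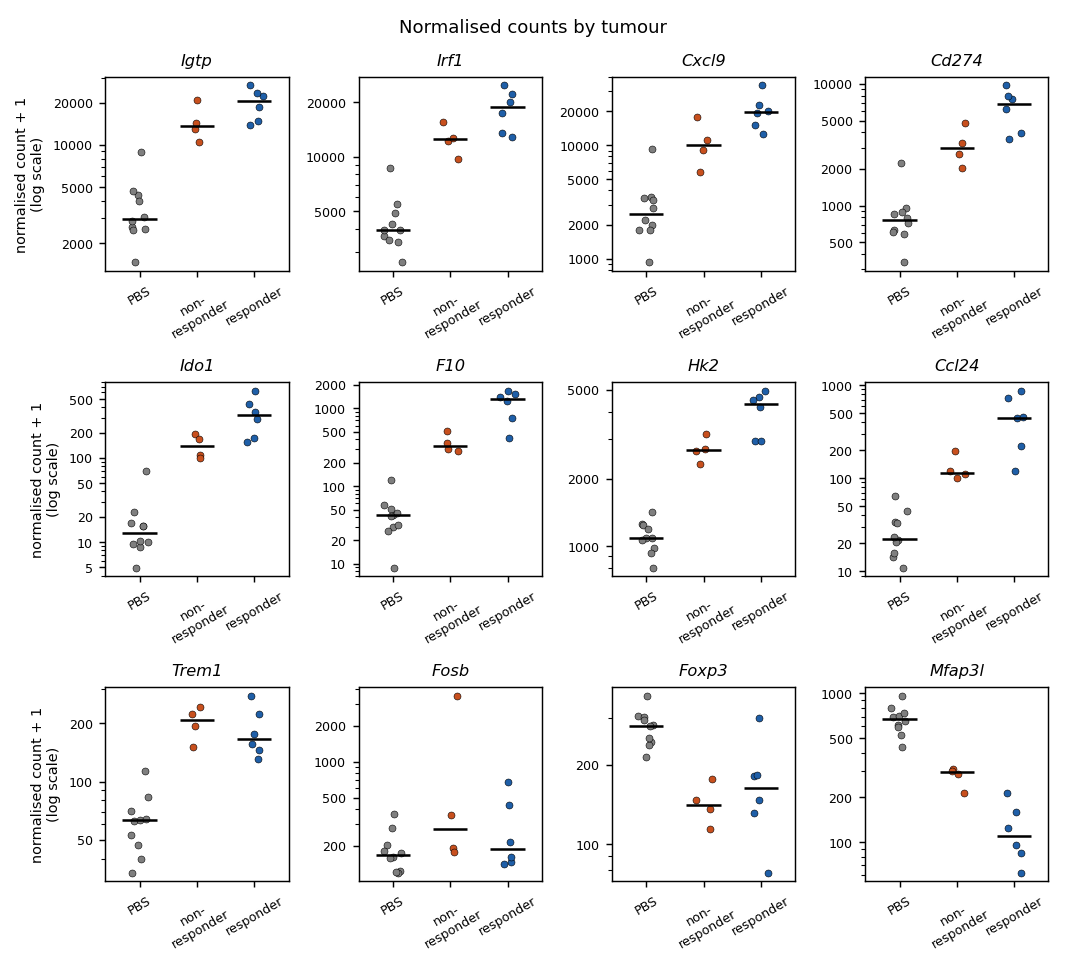
Normalised counts + 1 (log scale) of 12 genes in PBS (n = 10), non-responder (n = 4) and responder (n = 6) tumours; points are tumours and bars are medians. For Igtp, Irf1, Ido1, F10, Hk2, Ccl24 and Trem1 the lowest non-responder lies above the highest PBS tumour. Fosb is high in a single non-responder tumour. The non-responder values of Foxp3 and Mfap3l lie below all PBS tumours, whereas Foxp3 in responder tumour 45 (299) lies within the PBS range.

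Most T cell transcripts did not pass the test. None of 12 T cell markers was called in either direction (median -0.12), with a summed count of 3104 to 4288 in non-responders and 2546 to 4867 in PBS tumours. Cd8a had 98.1, 180, 131 and 98.5 normalised counts against 91.7 to 278 (median 112), a difference of -0.11 (SE 0.28, adjusted p = 0.82 by edgeR) whose sign turned when PBS tumour 14 or non-responder tumour 44 was left out. Of 9 CD8 and cytotoxic genes tested 1 was called, the T-box factor gene Tbx21 (1.10), and that call was lost without tumour 23. Of 7 T cell receptor constant genes tested, 3 were called higher, all of gamma-delta receptors and named after their values were seen: Trdc (1.08), Tcrg-C1 (1.05) and Tcrg-C2 (1.19). The alpha and beta chain genes Trac (-0.47, adjusted p = 0.086 by edgeR), Trbc1 (0.39, adjusted p = 0.20) and Trbc2 (0.13, adjusted p = 0.66) did not pass. A further constant gene, not named here, was tested and not called either. Ifng, Gzma, Gzmb and Prf1 were not analysed here. Ptprc, the pan-leukocyte gene CD45, differed by 0.44 (SE 0.19, adjusted p = 0.12). Without PBS tumour 14 the difference was 0.55 (adjusted p = 0.016 by edgeR). Over all fits that left out a tumour it ranged from 0.26 to 0.56, with a largest adjusted p of 0.45. Of 6 natural killer cell markers 1 was called, the receptor gene Klrk1 (1.14), likewise lost without tumour 23.

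Few regulatory T cell genes passed the test, and those that did were not all of one direction. Foxp3, the lineage factor, had 146, 113, 135 and 176 normalised counts against 213 to 363 (median 279). Every non-responder was below every PBS tumour, and the difference of -0.96 (SE 0.14, adjusted p = 1.76e-04 by edgeR) passed the test but not the fold minimum. Ccr8, a chemokine receptor of tumour regulatory T cells, differed by -0.87 (adjusted p = 0.015). The costimulatory receptor gene Icos, which is not on the regulatory T cell list, was at 181 to 235 against 246 to 606 (-0.84, adjusted p = 0.0045). Il2ra did not differ detectably (-0.08, SE 0.21, adjusted p = 0.83). Tnfrsf9, encoding the costimulatory receptor 4-1BB, was higher by 0.73 (adjusted p = 0.0055), and the actin-capping gene Capg by 0.26 (adjusted p = 0.022). Of the 10 genes on the list 2 were lower and 2 higher at the adjusted p threshold, against 8.47% and 13% of all genes. None reached the fold minimum, and the median was -0.41. The list's summed count, 7029 to 7721 against 6139 to 7930, overlapped.

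Of the 41 genes called lower, 40 differed by 1 to 2 on the log2 scale. The exception was the gene model Gm38384 (-2.05, SE 0.42, adjusted p = 0.0027 by edgeR), whose level was too low for the naming rule. By the naming rule, which asks for a mean level of at least 1 on the log2 CPM scale, 7 called genes were named. Mfap3l, a membrane glycoprotein gene, had 311, 214, 301 and 287 normalised counts against 435 to 967 (median 673), the largest of these at -1.28 (SE 0.18, adjusted p = 2.59e-04 by edgeR). Gpr165, an orphan receptor gene, was at 68.6 to 158 against 182 to 321 (-1.24). In both, all 4 non-responders lay below all 10 PBS tumours, and the calls held in each fit that left out a tumour. Cd27 (-1.13), a costimulatory receptor gene of lymphocytes, and the LIM homeobox gene Lhx9 (-1.12) were also separated, but each lost its call without 1 non-responder. Cxcl13 (-1.15), which attracts B cells, Dio3 (-1.08), the thyroid hormone inactivating deiodinase gene, and Cd207 (-1.08), encoding langerin, overlapped PBS tumours, and their calls were lost in 3, 4 and 1 of the 14 fits that left out a tumour. A further 15 genes had values below -2 without being called, with standard errors of 0.89 to 2.75. Of these 11 were pseudogenes.

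Proliferation and stroma gave no calls. Of 21 cell cycle genes none was called (median -0.11). Mki67, the proliferation marker, was at 9872 to 11604 against 11211 to 14742, lower by a log2 fold change of -0.30 (SE 0.07, adjusted p = 0.0056 by edgeR). None of 15 collagens (median -0.20), 8 fibroblast markers (median -0.04), 13 endothelial markers (median 0.19) or 10 osteoclast-like genes (median -0.61) was called. Of the 13 endothelial markers, however, 5 were higher and 1 lower at the adjusted p threshold, against 13% and 8.47% of all genes. The summed count of the endothelial list, 13910 to 15400 against 10650 to 12680 in PBS tumours, did not overlap. Atp6v0d2, a proton pump subunit of osteoclasts and giant cells, was at 217 to 582 against 371 to 2077 (-0.96, SE 0.45, adjusted p = 0.15). Of the matrix-degrading enzymes, 3 of 14 metalloproteinases and inhibitors were called, Mmp12 (1.89), Mmp8 (1.33) and Mmp13 (1.11), the last lost without tumour 44. Ctgf, a matricellular YAP target, rose by 2.07 (4087, 7209, 15008 and 13887 against 1798 to 3117, SE 0.26, adjusted p = 2.09e-04) as the 1 gene called of 12 on the TGF-beta and YAP list.

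Some of the genes that respond to handling or stress were raised. Of 10 immediate early genes tested 6 were called higher (median 1.39), and 3 without tumour 25. Fosb had 362, 191, 3551 and 177 normalised counts against 118 to 369, so its fold change of 2.52 (adjusted p = 0.017 by edgeR) rests on tumour 25 and the call was lost without it. Atf3 (356 to 576 against 75.8 to 184, 2.11) and Ier3 (406 to 665 against 148 to 275, 1.35) were higher in all 4 tumours. Among 9 glucocorticoid targets 4 were called (median 0.97), including the metallothionein genes Mt1 (1.34) and Mt2 (1.66) and the clock gene Per1, which was at 1130 to 2975 against 406 to 1102 (1.88). Of the 14 clock genes 1 was called higher and none lower, and 5 were lower at the adjusted p threshold. Whether time of resection or handling had a part in these differences was not tested. None of 8 heat shock genes was called (median 0.13), with Hspa1a higher (0.72) and Hsp90aa1 lower (-0.21) at the adjusted p threshold. None of the skeletal muscle (10 tested, all positive, median 0.82), skin (6 tested, median 1.38), adipocyte (7 tested, median 0.14) or red blood cell (5 tested, median 0.41) markers was called. Skin keratin genes Krt5 and Krt14 were at 0 in tumour 44 and above 20 in the other 3 non-responders.

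Responder tumours of the same treatment were compared with the non-responders directly. Of 14604 genes tested, edgeR called 0 higher and 0 lower (0%), with a smallest adjusted p of 0.068. At an unadjusted p below 0.05, 1952 were higher and 1350 lower, together 22.6% of the genes tested. DESeq2 called 108 higher and 13 lower in responders. With responder tumour 43 left out, edgeR called 181 and 24. Each group was also set against the same 10 PBS tumours, which both comparisons share: responders gave 1100 genes called higher (7.54%) and 156 lower (1.07%) of 14587. The values side by side were 1.95 and 2.54 for the median interferon-inducible GTPase, 1.10 and 2.04 for MHC class II, 0.74 and 1.52 for hypoxia and glycolysis, and 1.54 and 2.89 for the tryptophan and arginine list, non-responders first.

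The direct differences varied among genes. Retinoid genes did not pass this test: responders minus non-responders gave 0.51 for Cyp26b1 (SE 0.22, adjusted p = 0.20 by edgeR) and 0.28 for Dhrs3 (SE 0.12, adjusted p = 0.21). For Trem1 the value was -0.13 (SE 0.22, adjusted p = 0.76) and for Cxcl10 0.20 (SE 0.27, adjusted p = 0.69). Values were larger for Nos2 (2.21, SE 0.69, adjusted p = 0.11), Il13 (2.28, SE 0.45, adjusted p = 0.084), Pdcd1lg2 (2.11, SE 0.44, adjusted p = 0.084), F10 (1.69, SE 0.38, adjusted p = 0.084) and Mfap3l (-1.17, SE 0.30, adjusted p = 0.087). None of these passed the threshold, and a p-value above it does not show that the outcomes were alike.

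**Figure D5:**
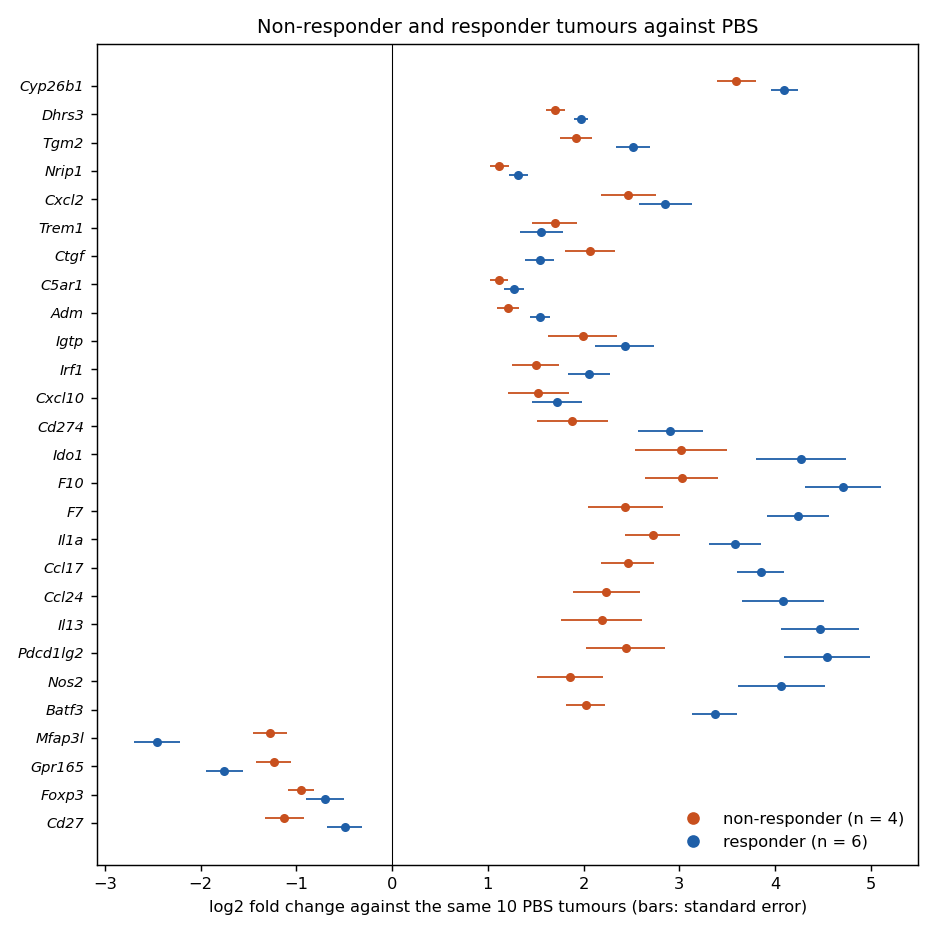
Log2 fold change against the same 10 PBS tumours for non-responder (n = 4, orange) and responder (n = 6, blue) tumours, with standard errors as bars. For Trem1 and Cxcl10 both points lie close together. For Cyp26b1 (3.60 and 4.10, non-responders first), Pdcd1lg2, Nos2, Il13 and F10 the responder point lies further from 0. None of these differences passed the direct test.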

How the data were processed

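RNA from 39 tumours was sequenced by the authors as 100-base single-end NovaSeq reads, converted with bcl2fastq 2.20.0.422, aligned with HISAT2 2.0.4 to a mouse genome they name mm11 and counted with SummariseOverlaps. Strand setting and treatment of multimapping reads are not given in the sources used here. The deposited values are raw counts per gene. Of 39676 identifiers, 36719 matched GENCODE M21 (GRCm38), from which coordinates and gene types were taken.

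Genes with too few counts were removed (filterByExpr), libraries were scaled by TMM, and groups were compared with edgeR 4.0.16 (quasi-likelihood test, robust, Benjamini-Hochberg adjustment over all genes tested) in R 4.3.3, using only the tumours of each comparison. Genes were called at an adjusted p below 0.05 together with a change of 1 or more on the log2 scale in either direction. Standard errors were derived from the fold change and the F statistic. Levels printed are counts divided by DESeq2 size factors over the 39 tumours. Fits were tested on simulated data. Alternatives were DESeq2 1.42.0, other scaling, filters and sample sets, and leaving out each tumour. The 4 additional list counts without single tumours were chosen after seeing the data.

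The 46 gene lists (606 genes, 503 of them tested) and the members were chosen with earlier results of these data known. Named genes were the 12 largest rises and falls (or all, where fewer) among called genes with a mean log2 CPM of at least 1, leaving out pseudogenes and Gm or Rik models, up to 3 called members per list and direction with the smallest p (or, with none called, the member with the smallest p), a list of key genes, and genes called between responders and non-responders. Other genes given were chosen after their values were seen. Experimental batches of mice are not given in the sources used here, and p-values measure the spread between single tumours of separate mice. Counts carry no molecular identifiers. Motifs were searched in RefSeq promoters on both strands with Python 3.11.15.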

Additional observations from a re-analysis of the deposited data

Results flagged for a closer look

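Among 222 combinations of a named gene and a group, on the log2 scale of normalised count + 1, 28 had a tumour set apart from the rest by Dixon's ratio at the 95% level. About 1 in 20 groups would be flagged by chance.

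PBS tumour 14 accounted for 19 of the 28. It was the highest PBS tumour for Serpina3g (3261), Cd27 (202), Ccl2 (3438), Irf5 (1546), Tap1 (7955), Psmb9 (2843), H2-DMa (2335), H2-DMb2 (1413), H2-DMb1 (2061), Csf2 (14.6), Ass1 (636), C1s1 (12483), Cd6 (254), Fcgr3 (3637), Fcgr1 (2568), Fcgr4 (2799), Nos2 (317) and Tnf (358). It was the lowest for Cd207 (25.3). For H2-DMa the other 9 PBS tumours held 759 to 1124 and for Nos2 88.7 to 132, so the overlap of these genes with non-responders came from this tumour. Without it, 473 genes were called higher in place of 391, and 8 in place of 5 MHC class I genes. The other flagged PBS values were Ido2 in tumour 12 (1.0), Col8a1 in tumour 55 (7124) and Aifm2 in tumour 54 (391).

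Among the non-responders, tumour 21 was lowest for Cyp26b1 (970, against 2077 to 2218 in the other 3), Mertk (340) and Fcgr3 (3535). Tumour 44 was highest for Chil3 (1272) and lowest for the osteoclast gene Acp5 (693, against 2216 to 2740) and the keratin gene Krt15 (0, against 11.7 to 19.2). Their part in the group differences is given by the fits without each tumour: Cyp26b1 and Chil3 stayed called in all 14.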

How the results depend on the processing

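Of 111 named genes, the log2 fold change against PBS kept its sign and its side of the threshold for 109 of 109 with DESeq2, 111 with DESeq2 size factors, 108 without the low-count filter, 97 of 97 with at least 10 counts in every tumour and 104 with all 39 tumours in one fit. DESeq2 gave Chil3 and Fosb no adjusted p-value, so its count leaves them out. Against PBS series 1 alone 46 calls were lost, against series 5 alone 4, and with series 2 non-responders alone 6. Genes called higher against PBS (391) numbered 181 against series 1 alone and 1922 without the fold minimum, and genes called lower (41) numbered 66 with DESeq2, 11 with at least 10 counts, 18 with all tumours in one fit, 13 against series 1 alone and 1252 without the minimum. Leaving out each tumour gave 268 to 473 higher and 29 to 55 lower. Responder against non-responder counts (0 and 0) became 108 and 13 with DESeq2, lower 1 with all tumours in one fit, and 0 to 181 and 0 to 24 when leaving out a tumour. Responder against PBS counts (1100 and 156) became 1750 and 341 without the filter, lower 308 with DESeq2 and 89 with at least 10 counts, and 3915 and 3845 without the minimum, with 1019 to 1248 and 132 to 252 when leaving out a tumour (252 without responder tumour 43). Against ICT alone (12 and 0) they became 22 and 4 with DESeq2, 24 higher with all tumours in one fit, and 38 and 1 without the minimum, with 7 to 16 higher and 0 lower when leaving out a tumour. Against tretinoin alone (22 and 15) they became 45 and 42 with DESeq2, 40 higher with all tumours in one fit, and 57 and 77 without the minimum, with 8 to 64 and 6 to 35 when leaving out a tumour. The cause was not tested, except that a test without the fold minimum admits smaller changes. The sign turned for 5 named genes, none of them called. Leaving out each tumour gave -0.21 to 1.15 for Thrsp, -0.039 to 0.12 for Xist, -0.32 to 0.071 for Cd8a, -0.21 to 0.014 for Il2ra and -0.37 to 0.11 for Ptgs2. With series 2 non-responders alone Thrsp was -0.21, Cd8a 0.0041 and Ptgs2 0.11, against series 1 alone Il2ra was 0.027, and against series 5 alone Xist was -0.024 and Ptgs2 0.082. No paired analysis was possible because the labels give groups no shared replicate numbers. With the name series as a block, which responders and non-responders share, that comparison gave 0 and 0. Genes below the low-count filter were not tested.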
